A study of Homo sapiens with 12 samples.

Results

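The genes described here are the 4 inhibitors of DNA binding, ID1, ID2, ID3 and ID4, and 3 genes that restrain signalling by bone morphogenetic proteins (BMPs) and transforming growth factor β (TGF-β), SMAD6, SMAD7 and BAMBI. They were taken by gene symbol from a table of 63677 genes, and all 7 were among the 17092 genes that reached 10 counts in 3 or more samples. They were chosen by measured values, fold changes between these same libraries that were known beforehand, so their levels and differences are given as a description. Calls of these genes by a test fitted to all genes, and intervals, describe the same libraries and support nothing further. Huh7, the cell line used, is a human hepatocellular carcinoma line, and RNA from 12 samples was sequenced, 3 in each of 4 groups. Untreated cells received medium only. The other cells were treated for 6 h with graphene oxide (GO) at 400 µg/mL, with GO carrying the ginseng saponin ginsenoside Rg3 (GO-Rg3) at 400 µg/mL, or with GO-Rg3 also loaded with the anthracycline doxorubicin (GO-Rg3-DOX) at 100 µg/mL. All groups are 1 established cell line, and the labels give no genetic change between them. The labels do not say whether samples of a group were separate cultures, so p-values measure the spread between these samples, which may be technical. GO and GO-Rg3 were given at an equal dose and are compared with each other, whereas values after GO-Rg3-DOX are compared with untreated cells and otherwise set side by side.

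BMPs bind receptor serine/threonine kinases that phosphorylate SMAD1, SMAD5 and SMAD9, which then enter the nucleus with SMAD4. The ID genes are among the best known direct targets of this route, and ID proteins pair with E proteins such as TCF3, TCF4 and TCF12 and keep them from binding DNA. SMAD6 and SMAD7, the inhibitory SMADs, and BAMBI, a membrane protein that resembles a type I receptor but lacks its kinase domain, are induced by the same signals and act back on the receptors. In hepatocytes this route is known for driving the iron hormone hepcidin, encoded by HAMP.

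Sequences upstream of the 7 genes are shown because SMAD-bound motifs are known from promoters of this kind, and because the genes moved together in the counts. Windows of up to 30 bases were read on the gene strand from GRCh37, within 5000 bases before the start of each gene's canonical transcript, and capitals mark the matched motif. GNCGNCNNNNNGTCT, a spaced pair of SMAD-bound elements, was searched on both strands and occurred upstream of 4 of the 7 genes (ID1, ID2, ID3 and SMAD6), and of 4.67% of 16307 tested genes with an annotated start. Its narrower form GGCGCCNNNNNGTCT, which overlaps it, occurred upstream of ID2 and ID3 and of 0.509% of those genes. The palindrome GTCTAGAC occurred upstream of SMAD6 and SMAD7 and of 2.81% of those genes.
ID1, 911 bases before the start, chr20:30192174-30192203: caggcctGGCGTCTAACGGTCTgagccgct
ID2, 4963 bases before the start, opposite strand, chr2:8817216-8817245: gcggcgcAGACAAGGCGACGCCagccccgc
ID2, 3114 bases before the start, chr2:8819065-8819094: cgcgcctGGCGCCAGAGAGTCTgctccggg
ID3, 2961 bases before the start, chr1:23888931-23888960: ccaccctGGCGCCAGGCTGTCTggggctga
ID3, 506 bases before the start, chr1:23886476-23886505: aattcctGACGCCAGTGAGTCTggaggtca
SMAD6, 12 bases before the start, chr15:66994551-66994573: gccgccaaagtGTCTAGACtggc
SMAD7, 1260 bases before the start, chr18:46478577-46478606: agcgacagggtGTCTAGACggccacgtgac
The ID1 window lies in an exon of a long noncoding RNA, and the ID2 window nearer the start lies in an exon of a longer ID2 transcript and so within the span of the gene. The SMAD6 palindrome overlaps a match to the longer motif that begins 23 bases before the start. ID4 and BAMBI held none of these letters in the window searched. A match is a description of letters and not of binding.

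The proximal promoters also differed among the 7 genes. In RefSeq promoters on GRCh38.p14, the 60 bases before the start held TATAA on the gene strand for ID1, ID3 and ID4 and for 1 of 3 listed SMAD7 starts, and for none of ID2, SMAD6 and BAMBI. Of 35116 promoters listed, 6.69% held TATAA on either strand, and the share for the gene strand alone was not counted. The ID promoters with the motif are shown in full, with TATAA in capitals.
ID1, chr20:31605229-31605288, plus strand: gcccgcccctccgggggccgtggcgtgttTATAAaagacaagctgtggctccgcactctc
ID3, chr1:23559502-23559561, minus strand: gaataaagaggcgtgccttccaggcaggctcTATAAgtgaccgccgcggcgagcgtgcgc
ID4, chr6:19837310-19837369, plus strand: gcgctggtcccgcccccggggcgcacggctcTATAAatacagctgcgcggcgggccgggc
The motif stands 31 bases before the start in ID1 and 29 bases before it in ID3 and ID4.

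Counts per sample totalled 27802871 to 38877420. Levels are given as TMM-normalized CPM (counts scaled to a common library size), with mean ± SD over the 3 samples of a group. Mitochondrially encoded genes took 5.31% to 6.28% of the counts in untreated cells, 12.1% to 24.1% after GO, 6.89% to 7.42% after GO-Rg3 and 12.8% to 19.4% after GO-Rg3-DOX. The part of this share in the differences was not tested. GO replicate 1 had the highest share, 24.1%. All 10 hepatocyte markers examined, among them ALB and HNF4A, were above 1 CPM in each group. Their summed CPM was 24000 to 24140 without treatment, 15200 to 18300 after GO, 18620 to 22290 after GO-Rg3 and 31780 to 37130 after GO-Rg3-DOX. AFP made up the largest part of this sum, and single markers did not all follow it. HNF4A was at 352 to 378 CPM without treatment, 545.5 to 574 after GO and 158 to 209 after GO-Rg3-DOX. SERPINA1 was at 1545 to 1612 CPM without treatment and 1840 to 2344 after GO. Of 8 markers of other cell types, the lysozyme gene LYZ was at 111.4 to 159 CPM and made up most of their summed 113 to 162 CPM. The collagen gene COL3A1 was at 0.799 to 0.926 CPM in untreated cells and at 2.06 to 2.59 CPM after GO-Rg3-DOX. The others were below 1 CPM in every sample, and the leukocyte gene PTPRC had at most 2 counts. The part of these markers in the differences was not tested. In bulk RNA, fewer cells with a transcript and less of it per cell cannot be told apart.

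All 7 genes had their highest mean in untreated cells, followed by GO-Rg3, GO and GO-Rg3-DOX in that order. Neighbours in this order did not overlap for ID1, ID2, ID3, ID4 and SMAD7. GO-Rg3 and GO overlapped for SMAD6, and GO and GO-Rg3-DOX overlapped for BAMBI. The shares of all genes tested with this order, or with such separation, were not counted, so neither is read as particular to the 7 genes. Relative to untreated cells, the mean levels were 27.9% (ID3) to 56.7% (SMAD6) after GO, 42.7% (ID3) to 69.9% (BAMBI) after GO-Rg3, and 6.25% (ID3) to 30.2% (BAMBI) after GO-Rg3-DOX. Per kilobase of transcript, the level in untreated cells was highest for ID1 at 199.7 CPM per kb, followed by ID3 at 161, ID2 at 156 and BAMBI at 76.8. On the same scale SMAD7 stood at 12.7, SMAD6 at 4.43 and ID4 at 2.87 CPM per kb. With the length of all annotated exons in place of that of the canonical transcript, SMAD6 was at 1.98 and ID4 at 2.87 CPM per kb, so that the order of these genes depended on the length used.

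**Figure D1:**
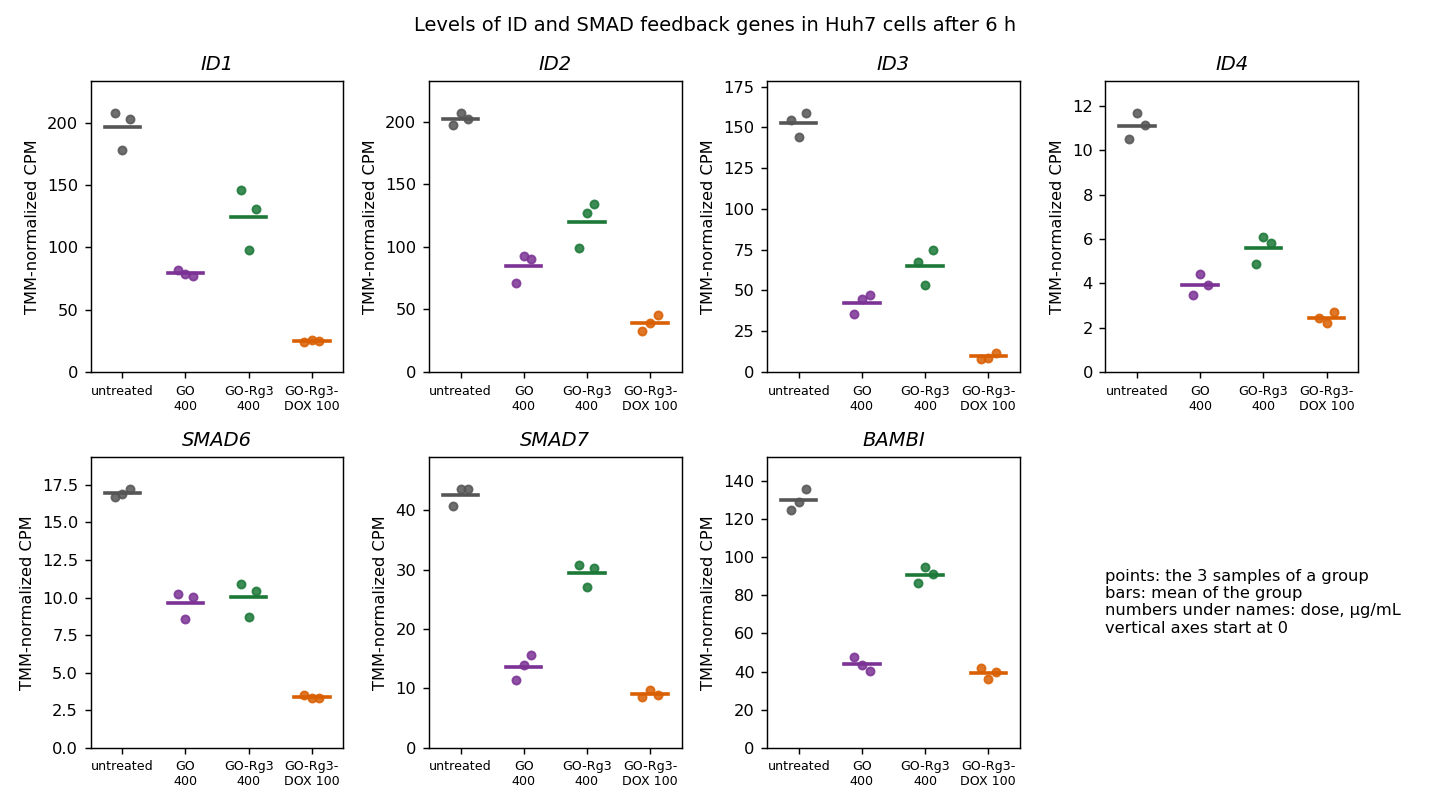
Level of each gene (vertical axis, TMM-normalized CPM, starting at 0) in the 4 groups (horizontal axis, doses in µg/mL), where points are samples and bars are group means. In every panel the 3 untreated samples lie above all others, and the GO-Rg3-DOX samples lie lowest, overlapping with GO only for BAMBI.

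ID1 (ENSG00000125968, chr20:30193086-30194318, plus strand, 2 exons) has a transcript of 983 nucleotides. Its level was 208, 178 and 203 CPM in untreated replicates 1, 2 and 3, from 5580 to 8621 counts. After GO it was 82.25, 78.5 and 76.9 CPM, and after GO-Rg3 it was 146, 97.8 and 130.5 CPM. In the 3 GO-Rg3-DOX samples it was 24.2, 26.1 and 24.6 CPM, from 587 to 726 counts. The 3 GO samples lay close together, and the GO-Rg3 samples were spread more widely, with replicate 2 the lowest, but no group overlapped another. The log2 fold change against untreated cells was -1.31 (standard error 0.12) after GO, -0.65 (0.12) after GO-Rg3 and, with GO-Rg3-DOX, -2.97 (0.13).

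ID2 (ENSG00000115738, chr2:8818975-8824591, plus strand, 3 exons) is annotated with an antisense gene, ID2-AS1, that overlaps it, and its counts are uncertain to that extent because the strand setting of the counting is not given in the sources used here. Untreated replicates 1, 2 and 3 held 198, 207 and 202.5 CPM of ID2, the highest mean of the 7 genes on the scale without length. After GO the samples were at 71.4, 93.1 and 90.4 CPM and after GO-Rg3 at 99.4, 126.7 and 134.5 CPM. The GO-Rg3-DOX samples had 33, 39.1 and 45.7 CPM. Replicate 1 was the lowest sample in each group, and the groups did not overlap, although the highest GO sample and the lowest GO-Rg3 sample were close. In the comparison with untreated cells the log2 fold changes were -1.25 (standard error 0.14) for GO, -0.75 (0.14) for GO-Rg3 and -2.36 (0.14) for GO-Rg3-DOX.

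ID3 (ENSG00000117318, chr1:23884417-23885992, minus strand, 3 exons), with the shortest transcript of the 7 at 950 nucleotides, showed the largest differences from untreated cells of the 7 genes in each of the 3 treatments. It stood at 155, 144 and 159 CPM in untreated cells. GO left 35.4, 45.0 and 47.0 CPM, and GO-Rg3 left 67.4, 53.1 and 74.7 CPM. The GO-Rg3-DOX samples had 8.24, 8.84 and 11.5 CPM, from 200 to 302 counts. No groups overlapped, and the highest GO-Rg3-DOX sample was far below the lowest GO sample. ID3 changed on the log2 scale by -1.84 (standard error 0.15) after GO, -1.23 (0.14) after GO-Rg3 and, with GO-Rg3-DOX, -4.0 (0.17). Of the 17092 genes tested, 58 had a lower log2 fold change than ID3 after GO, 55 after GO-Rg3 and, with GO-Rg3-DOX, 23.

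ID4 (ENSG00000172201, chr6:19837601-19842428, plus strand, 3 exons), with the longest transcript of the 7 genes at 3873 nucleotides, was the least abundant ID gene. Untreated samples had 10.5, 11.7 and 11.1 CPM, from 365 to 473 counts. The level was 3.49, 4.41 and 3.93 CPM after GO and 4.87, 6.11 and 5.84 CPM after GO-Rg3. After GO-Rg3-DOX it was 2.43, 2.23 and 2.71 CPM, from 59 to 71 counts. Groups did not overlap, but the lowest GO-Rg3 sample was close to the highest GO sample. ID4 differed from untreated cells by log2 fold changes of -1.48 (standard error 0.13) for GO, -0.99 (0.13) for GO-Rg3 and -2.18 (0.14) for GO-Rg3-DOX.

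SMAD6 (ENSG00000137834, chr15:66994574-67075187, plus strand, 4 exons) encodes an inhibitory SMAD that acts mainly on BMP receptors. The 3 untreated samples were almost equal, at 16.7, 16.9 and 17.2 CPM. After GO the values were 10.2, 8.56 and 10.05 CPM, and after GO-Rg3 they were 10.9, 8.71 and 10.45 CPM. GO-Rg3-DOX left 3.502, 3.34 and 3.32 CPM, from 85 to 93 counts. GO and GO-Rg3 samples lay in the same range, below all untreated samples and above all GO-Rg3-DOX samples. SMAD6 had log2 fold changes of -0.82 (standard error 0.11) after GO and -0.76 (0.11) after GO-Rg3, and of -2.32 (0.13) after GO-Rg3-DOX.

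SMAD7 (ENSG00000101665, chr18:46446223-46477335, minus strand, 4 exons) encodes the inhibitory SMAD that acts on both TGF-β and BMP receptors. Its level was 40.7, 43.5 and 43.5 CPM in untreated cells. GO left 11.4, 14.0 and 15.6 CPM, whereas GO-Rg3 left 30.8, 27.1 and 30.2 CPM. The level after GO-Rg3-DOX was 8.61, 9.70 and 8.92 CPM. The GO samples were nearer to the GO-Rg3-DOX samples, and the GO-Rg3 samples nearer to the untreated ones, without overlap between groups. SMAD7 stood at a log2 fold change of -1.64 (standard error 0.12) for GO, -0.54 (0.11) for GO-Rg3 and -2.23 (0.12) for GO-Rg3-DOX.

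BAMBI (ENSG00000095739, chr10:28966439-28971861, plus strand, 3 exons) was the most abundant of the feedback genes. Untreated cells had 124.9, 129 and 136 CPM. After GO the level was 47.6, 43.7 and 40.5 CPM and after GO-Rg3 it was 86.3, 94.8 and 91.3 CPM. GO-Rg3-DOX gave 41.9, 35.98 and 39.8 CPM, from 1001 to 1043 counts. The highest GO-Rg3-DOX sample was above the lowest GO sample, so that these groups overlapped, and both lay below all GO-Rg3 samples. BAMBI had log2 fold changes of -1.56 (standard error 0.10) after GO, -0.52 (0.09) after GO-Rg3 and, with GO-Rg3-DOX, -1.73 (0.10).

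Replicates did not rank alike in all genes. Among the GO samples, replicate 1, which had the highest mitochondrial share, was the lowest for ID2, ID3, ID4 and SMAD7 and the highest for ID1, SMAD6 and BAMBI. Among the GO-Rg3 samples, replicate 2 was the lowest for ID1, ID3, SMAD6 and SMAD7, while replicate 1 was the lowest for ID2, ID4 and BAMBI.

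A gene is called here where its adjusted p is below 0.01 in the quasi-likelihood test of edgeR, adjusted by the Benjamini-Hochberg procedure, and its absolute log2 fold change is above 1. After GO, 6 of the 7 genes were called lower than in untreated cells, beside 2.62% of all genes tested. SMAD6 was the exception, with an adjusted p below the threshold but a log2 fold change of -0.82. With an offset for the GC content of transcripts SMAD6 was at -1.08 and was called too. Leaving out any 1 of the 6 samples left the number called at 6. The groups did not overlap in any of the 7 genes, as in 29.9% of all genes in that direction. The median log2 fold change of the 7 genes was -1.48, and that of all genes tested was 0.01.

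After GO-Rg3, ID3 alone was called lower, beside 0.0468% of all genes tested, 8 genes in number. Its call was lost without untreated replicate 1, 2 or 3, where it stood at -1.22, -1.27 and -1.20, and none of the 7 genes was called in those fits. Without GO-Rg3 replicate 2, ID4 was called as well, at -1.05. ID3, ID4 and SMAD6 had an adjusted p below 0.01 whatever their fold, as did 0.105% of all genes in that direction. All 7 genes lay without overlap below untreated cells, as did 16.6% of all genes. Their median log2 fold change was -0.75, against 0.00 for all genes.

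After GO-Rg3-DOX all 7 genes were called lower, beside 18.2% of all genes tested, and all 7 lay without overlap below untreated cells, as did 40.3% of all genes. The median log2 fold change of the 7 genes was -2.32 and that of all genes was -0.06. Scaling by library totals in place of TMM moved the median of all genes to -0.47, and the 7 genes then ranged from -4.41 (ID3) to -2.15 (BAMBI). With the GC content offset ID2 stood at -1.97 and ID4 at -1.74. These counts restate differences that were known when the genes were chosen, and nothing is read from their distance to the background.

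**Figure D2:**
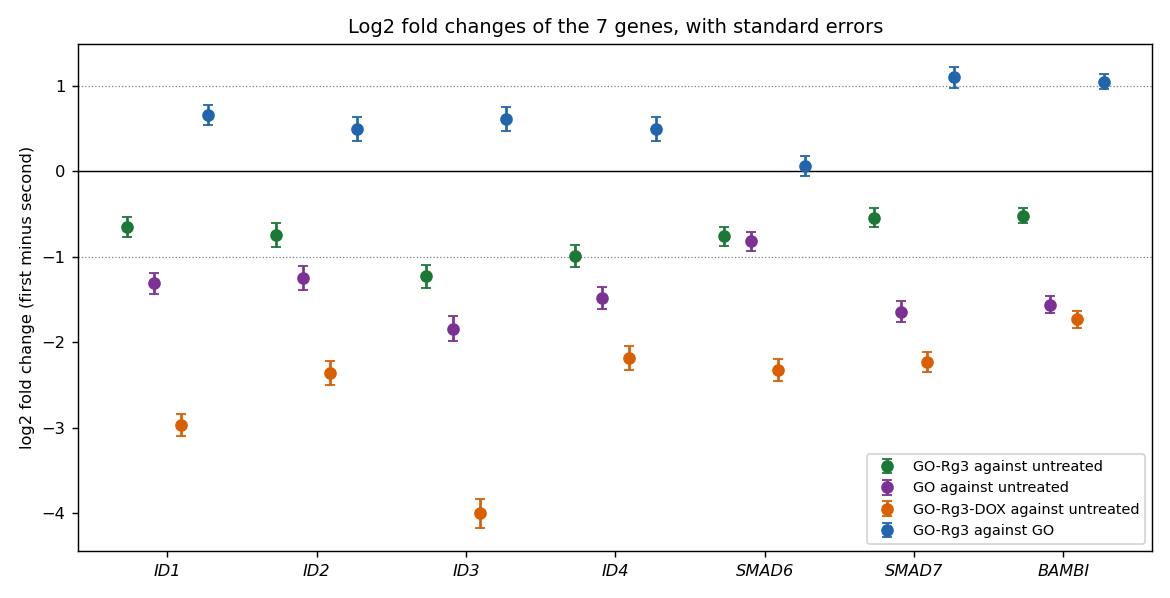
Log2 fold change of each gene (vertical axis) in 4 comparisons (colours), with bars of 1 standard error and dotted lines at -1 and 1. Values against untreated cells are all negative, lowest for ID3 after GO-Rg3-DOX at -4.0, and GO-Rg3 against GO is near 0 only for SMAD6, at 0.06.

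GO and GO-Rg3 were given at the same dose and were set against each other for each of the 7 genes, in 7 comparisons. They differ in the attached ginsenoside and, by the study's account, also in the acid and heat used to attach it and in the size, thickness and surface charge of the flakes, and these cannot be told apart here. SMAD7 and BAMBI were called higher after GO-Rg3, beside 0.702% of all genes in that direction. SMAD7 was higher by 1.10 on the log2 scale (95% interval 0.83 to 1.37) and BAMBI by 1.05 (0.83 to 1.27). Without GO replicate 1 SMAD7 was at 0.99, and without GO replicate 3 BAMBI was at 0.99, and in each of these fits 1 gene was called in place of 2. The ID genes were higher by 0.66 (0.37 to 0.94) for ID1, 0.50 (0.18 to 0.82) for ID2, 0.61 (0.28 to 0.95) for ID3 and 0.50 (0.18 to 0.81) for ID4, and none of them passed a log2 fold change of 1. SMAD6 was at 0.06, with an interval from -0.20 to 0.33, and at -0.02 without GO replicate 2. In 6 of the 7 genes the GO-Rg3 samples lay above the GO samples without overlap, as in 20.1% of all genes.

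Ratios of counts within a library do not depend on how libraries are scaled against each other, and they show where the 7 genes moved unequally. Untreated libraries held 2.44, 2.58 and 2.525 counts of SMAD7 for each count of SMAD6. In the GO libraries this ratio was 1.11, 1.63 and 1.55, and in the GO-Rg3 libraries 2.83, 3.11 and 2.89. The GO-Rg3-DOX libraries had 2.46, 2.90 and 2.69. The 3 GO libraries lay below all 9 others, and the GO-Rg3-DOX libraries overlapped the untreated ones where SMAD6 and SMAD7 were at 20% and 21.3% of their untreated means. BAMBI counts for each SMAD6 count behaved likewise in GO, at 4.66, 5.10 and 4.03 against 7.47, 7.63 and 7.89 in untreated cells. In the GO-Rg3-DOX libraries that ratio was 11.95, 10.76 and 11.99, above all untreated and GO libraries. The GO-Rg3 libraries had 7.94, 10.88 and 8.74, so that GO-Rg3 and GO-Rg3-DOX overlapped.

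Within the ID family, ID3 made up a smaller share of the transcripts in each treatment than in untreated cells. ID1 counts for each ID3 count were 1.34, 1.24 and 1.28 in untreated libraries and 2.32, 1.74 and 1.64 after GO. They were 2.17, 1.84 and 1.75 after GO-Rg3 and 2.94, 2.95 and 2.14 in the GO-Rg3-DOX libraries. No treated library reached down to the untreated range. Taken per transcript length, ID3 made up 30.9% ± 0.378 of the 4 ID transcripts in untreated cells, 23.2% ± 1.98 after GO, 23.6% ± 1.46 after GO-Rg3 and, with GO-Rg3-DOX, 15.1% ± 1.36 (SD, n = 3 each). ID2 made up 30.05% ± 1.80 in untreated cells and 45.4% ± 2.66 after GO-Rg3-DOX on the same scale. ID1 took 38.45% ± 1.68 and 38.55% ± 3.78 of the 4 transcripts in these groups. ID4 stayed below or near 1% throughout, with its highest share, 1.06%, in a GO-Rg3-DOX library. With the length of all annotated exons instead, ID1 was at 20.25 and ID2 at 17.75 CPM per kb after GO-Rg3-DOX. Which of ID1 and ID2 took the larger share in that group thus depended on the length used.

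**Figure D3:**
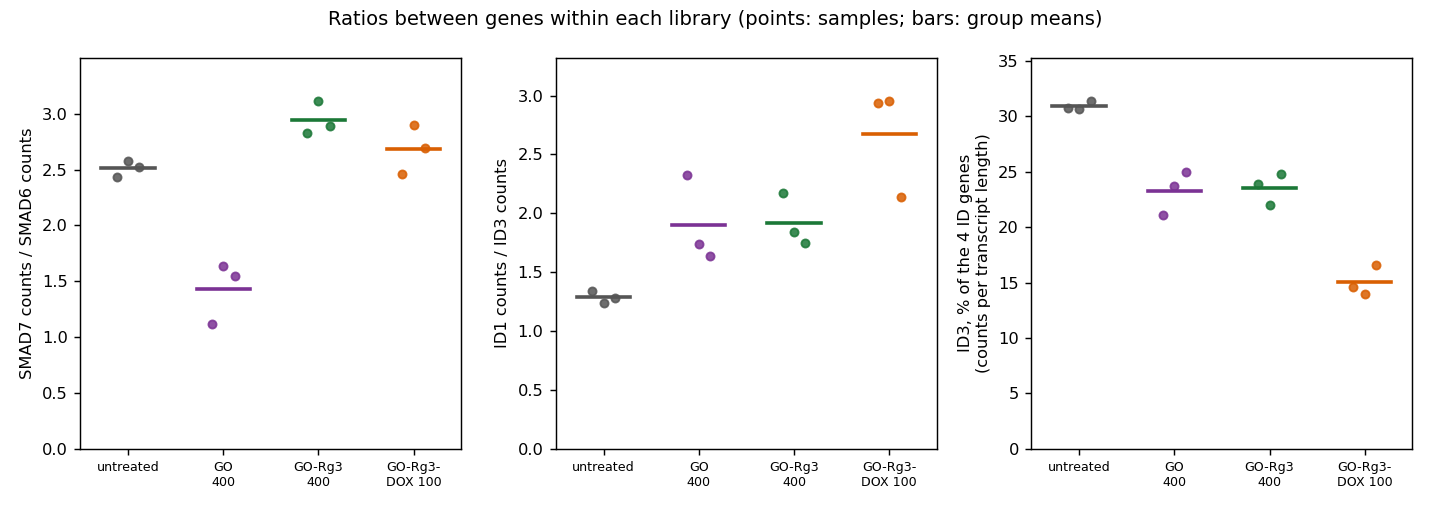
Ratios between genes within each library (vertical axes, starting at 0) in the 4 groups (horizontal axes, doses in µg/mL), with points for samples and bars for group means. The SMAD7 to SMAD6 ratio is lowest in the 3 GO libraries, at 1.11 to 1.63, and the ID3 share of the ID transcripts falls from about 30.9% in untreated cells to 15.1% after GO-Rg3-DOX.

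Across the 12 samples, the log2 levels of the 7 genes were most alike for ID1 and ID3, with a Pearson r of 0.988, and least alike for SMAD6 and BAMBI, at 0.804. These values describe 4 groups that stand apart and that share their libraries, so no test is given. Among 13242 genes with a mean of at least 1 CPM, CXXC5, a zinc finger protein gene, was closest to ID1 (r = 0.996), TBX3, a T-box transcription factor gene, was the closest to ID3 after ID1 and ID2 (0.984), and NAT2, an arylamine N-acetyltransferase gene, was closest to ID2 (0.990). GMNN, which encodes geminin, was closest to ID4 (0.9805). SSTR2, a somatostatin receptor gene, was closest to SMAD7 (0.994), SRSF7, a splicing factor gene, to BAMBI (0.993) and DNTTIP1 to SMAD6 (0.986). Genes outside the 7 thus had levels as near to one of them as the 7 were to each other.

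Other genes of the pathway were taken from 9 lists of 106 genes (ligands, receptors, SMADs, secreted antagonists, SMAD regulators, targets and E proteins), of which 80 passed the filter on low counts. After GO, 6 of these 80 were called higher and 2 lower, beside 6.47% of all genes in either direction. After GO-Rg3, 0 were called by edgeR and 0 by DESeq2, which gave an adjusted p for 61 of them, beside 0.0585% of all genes in either direction, although 9 were higher and 4 lower at an unadjusted p below 0.05 by edgeR. After GO-Rg3-DOX 13 were called higher and 22 lower, beside 30.8% of all genes, and with library totals in place of TMM 8 and 33. The median log2 fold change of the 80 genes was 0.13 after GO, 0.08 after GO-Rg3 and, with GO-Rg3-DOX, -0.40, beside -1.48, -0.75 and -2.32 for the 7 genes.

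The ligand BMP2 was abundant and did not fall with the ID genes after GO. Its level was 229, 226.5 and 215 CPM in untreated cells and 282, 273 and 267 CPM after GO, or 0.29 on the log2 scale (SE 0.09, edgeR adjusted p = 0.021). After GO-Rg3-DOX it was 44.2, 49.7 and 54.1 CPM, or -2.18 on the log2 scale (SE 0.10, edgeR adjusted p = 1.9e-10). BMP4, which overlaps a long noncoding RNA on the opposite strand, differed by -0.40 (adjusted p = 0.0085) after GO and by -1.28 (adjusted p = 1.4e-07) after GO-Rg3-DOX. Of the 15 other ligands tested, 5 were called higher and 1 lower after GO-Rg3-DOX, beside 12.6% and 18.2% of all genes. After GO, 4 of the 15 were called higher, as were 657 of all 17092 genes tested. They were INHA at 1.21 (edgeR adjusted p = 0.00027), GDF15 at 1.14 (0.00062), AMH at 1.12 (0.0055) and INHBB at 1.40 (0.0007). INHBB, which was named after its values were seen, had a mean of 1.065 CPM after GO. The AMH call was lost on leaving out any single sample other than GO replicate 2, and without GO replicate 1 GDF15 was at 0.97. With the GC content offset INHA, GDF15 and AMH were at 0.85, 0.77 and 0.49 and were not called.

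Of 16 receptor genes tested, 1 was called after GO, beside 6.47% of all genes in either direction. After GO-Rg3-DOX 5 were called lower and 2 higher, beside 18.2% and 12.6% of all genes. The receptor gene called after GO was ENG, named after its values were seen, at 1.74 (edgeR adjusted p = 0.0002) with a mean of under 1 CPM in each group. The BMP type I receptor gene BMPR1A fell from 26.2 ± 0.0772 to 4.39 ± 0.463 CPM after GO-Rg3-DOX, or -2.57 on the log2 scale (SE 0.16, edgeR adjusted p = 3.2e-09). The type II receptor gene BMPR2 had a log2 fold change of -0.10 (adjusted p = 0.51) after GO, which took the opposite sign with a GC content offset, and of -1.10 (adjusted p = 1.7e-06) after GO-Rg3-DOX. All 6 receptor-regulated and common SMAD genes had an adjusted p below 0.01 and a lower level after GO-Rg3-DOX, beside 30.5% of all genes. Called lower were 3 of them, beside 18.2% of all genes. They were SMAD5 at -1.89 (edgeR adjusted p = 5.3e-08), SMAD4 at -1.71 (5e-10) and SMAD1 at -1.56 (6.4e-06). SMAD4, the partner shared by the BMP and TGF-β routes, was at 71.4, 73.5 and 69.3 CPM in untreated cells, at 53.1, 55.5 and 51.95 CPM after GO and at 64.9, 71.3 and 69.0 CPM after GO-Rg3. The log2 difference from untreated cells was -0.42 (SE 0.08, edgeR adjusted p = 0.0011) after GO, which became -0.13 (adjusted p = 0.15) with a GC content offset, and -0.06 (adjusted p = 0.8) after GO-Rg3. SMAD1 and SMAD5 had log2 fold changes of -0.15 (adjusted p = 0.53) and 0.21 (0.27) after GO. With the GC content offset SMAD5 was at 0.61 (adjusted p = 2e-05), and with 1 sample left out in turn it ranged from 0.06 to 0.39. SMAD3, a SMAD of the TGF-β route named after its values were seen, had a level of 172 ± 20.1 CPM after GO against 95.3 ± 4.90 CPM without treatment, or 0.85 on the log2 scale (adjusted p = 2.5e-05), and did not pass a log2 fold change of 1. SMAD1, SMAD3, SMAD4 and SMAD5 each overlap another annotated gene, as do AMH, BMPR2, CHRD, ENG and TCF4, which makes the counts of these genes uncertain to that extent.

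Among the antagonists and regulators, FST, which encodes the activin-binding follistatin, was called lower after GO (log2 fold change -1.08, adjusted p = 1.5e-05 by edgeR), and so was SKIL, a repressor of SMAD-driven transcription named after its values were seen, at -1.07 (2.5e-05). With the GC content offset they were at -0.95 and -0.55 and neither was called, and without GO replicate 1 SKIL was at -0.95 and was not called. After GO-Rg3-DOX 8 of 16 SMAD regulators were called lower, beside 18.2% of all genes in that direction. TOB1, an antiproliferative protein gene that overlaps TOB1-AS1, had the largest difference of these, from 76.05 ± 2.56 to 8.64 ± 1.45 CPM (log2 fold change -3.14, adjusted p = 1.1e-10 by edgeR). Of 8 secreted antagonists tested, 3 were called higher after GO-Rg3-DOX, beside 12.6% of all genes in that direction, CHRD (1.15, adjusted p = 7.8e-06), FSTL3 (1.10, 4.8e-06) and NBL1 (1.65, 0.0041), which was named after its values were seen, shares its strand with the overlapping gene MICOS10 and was at 0.462 ± 0.0639 CPM. None of the 8 was called lower. The NBL1 call was lost without untreated replicate 1, untreated replicate 3 or GO-Rg3-DOX replicate 1, with the lowest log2 fold change of these fits at 1.46. With the GC content offset CHRD was at 0.45, FSTL3 at 0.48 and NBL1 at 1.06, and none of these was called.

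The target gene HEY1 did not follow the group order of the 7 genes. It was at 9.14 ± 0.116 CPM in untreated cells, at 9.93 ± 0.325 CPM after GO and at 6.17 ± 0.517 CPM after GO-Rg3, and its log2 fold change for GO-Rg3 against GO was -0.69 (SE 0.11, edgeR adjusted p = 0.00049), where 6 of the 7 genes were higher. After GO-Rg3-DOX it was at 2.54 ± 0.0793 CPM (log2 fold change -1.84, adjusted p = 5.6e-09). HAMP had few counts, at 0.165 ± 0.0609 CPM in untreated cells, and was not called in any comparison. After GO-Rg3-DOX it was at 0.449 ± 0.0787 CPM without overlap (log2 fold change 1.38, adjusted p = 0.0104 by edgeR). MSX1, a homeobox gene named after its values were seen and the last of the 3 BMP targets tested, was called higher there, from 0.372 ± 0.223 to 1.92 ± 0.243 CPM (log2 fold change 2.29, adjusted p = 0.00012 by edgeR). Of the E protein genes, TCF12 and TCF4 were called lower after GO-Rg3-DOX at -1.41 (adjusted p = 4e-06) and -1.01 (0.00013), and TCF3 was at 0.46 (adjusted p = 0.023). TCF4 had log2 fold changes of -0.98 to -0.46 in the settings that did not call it, among them the fit without GO-Rg3-DOX replicate 1, at -0.94. TCF3, by contrast, stood at -0.07 with the GC content offset.

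**Figure D4:**
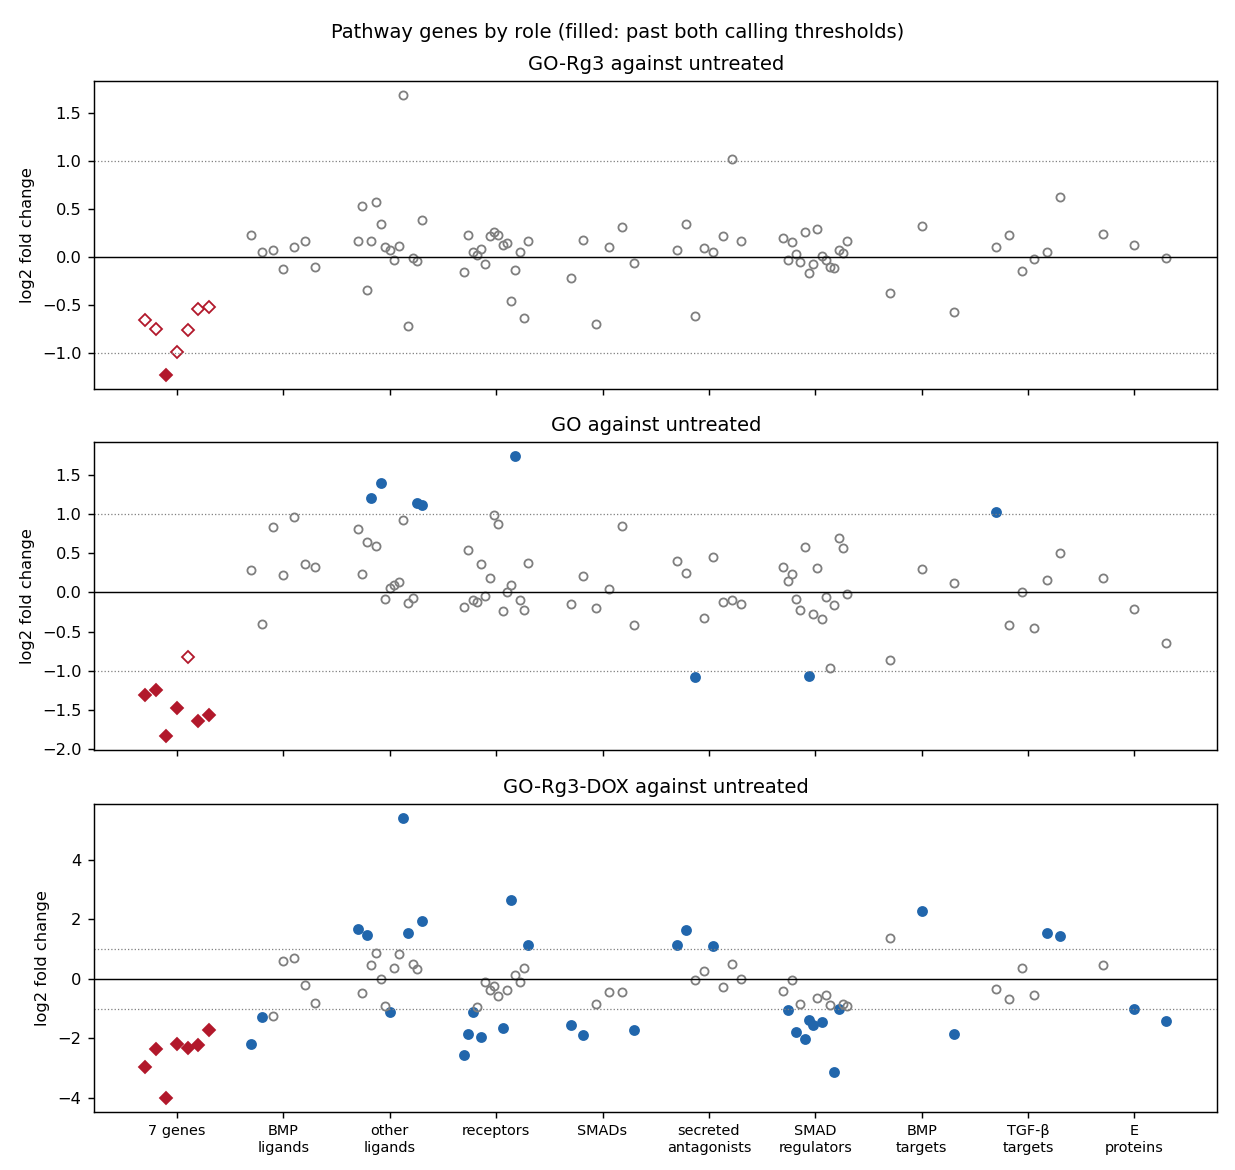
Log2 fold change (vertical axis) of the 7 genes (red diamonds) and of the 80 other pathway genes by role (circles) against untreated cells, one panel per treatment, with filled symbols for genes past an adjusted p of 0.01 and an absolute log2 fold change of 1, and dotted lines at -1 and 1. After GO-Rg3 ID3 is the single filled symbol, and after GO the called pathway genes lie mostly above 0 while 6 of the 7 genes are called below it.

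Between GO-Rg3 and GO, 4 of the 80 pathway genes were called, all lower after GO-Rg3, beside 2.77% of all genes in either direction. They were INHA at -1.04 (adjusted p = 0.0017 by edgeR) and GDF15 at -1.18 (0.0012), and, named after their values were seen, INHBB at -1.05 (0.0075) and ENG at -1.87 (0.00035). Without GO-Rg3 replicate 2 the number was 1. SMAD4 was higher after GO-Rg3 than after GO by 0.35 (SE 0.08, edgeR adjusted p = 0.0064) and BMP4 by 0.45 (SE 0.11, edgeR adjusted p = 0.0075), below the fold threshold.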

How the data were processed

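The authors isolated RNA from Huh7 cells, made strand-specific libraries of polyadenylated RNA, mapped reads to GRCh37 with the NGI-RNAseq pipeline and assigned them to Ensembl genes by featureCounts. Raw counts without normalization were deposited by the authors. Versions, annotation release and strand setting are not given in the sources used here. Cells treated with free doxorubicin were not analysed here. Groups and replicate numbers came from the sample labels.

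Genes that reached 10 counts in 3 or more samples were fitted over all 12 samples with edgeR 4.0.16 (TMM scaling, quasi-likelihood test) in R 4.3.3, where the authors used DESeq2. P-values were adjusted over all 17092 genes. Standard errors come from the same fit, and 95% intervals use 8 residual degrees of freedom. The fit was tested on simulated counts. Totals of 27802871 to 38877420 counts limit precision through counting error, and no molecular identifiers mark single molecules. Samples of a group also differed by more than counting error. Over genes, the chi-square per degree of freedom ran from 2.976 (untreated replicates 2 and 3) to 155.3 (GO replicates 1 and 2). Transcript lengths, GC content (95.4% of tested genes) and positions came from an annotation lifted to GRCh37, and motifs were counted by exact letters. Promoters for TATAA were RefSeq's on GRCh38.p14. All 7 genes matched an entry. Tables and figures were made with Python 3.11.15, pandas 2.3.3 and matplotlib 3.10.9.

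The 7 genes and the pathway lists were chosen with earlier results of these data known. Named pathway genes are, per list, up to 4 called genes of at least 1 CPM with the largest change, plus HAMP, SMAD1, SMAD4, SMAD5, BMPR2 and TCF3. One gene that this rule names is counted but not reported here. Likeness is the Pearson correlation of log2(CPM + 0.05). After the data were seen, results under other settings were restricted to 59 gene comparisons of pathway genes, those with an adjusted p below 0.01 and those of these 6 genes and BMP2, and the other 77 are not reported. The alternatives were RLE scaling, library totals, no filter, at least 10 counts in each of the 12 samples, a replicate block, a loess GC content offset (span 0.5) alone or together with the block, a fit to the 6 samples compared, leaving out each sample, DESeq2 1.42.0, and adjusted p thresholds of 0.05 and 0.0001.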

Additional observations from a re-analysis of the deposited data

How the results depend on the processing

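In all settings the 7 genes stayed below untreated cells after each treatment. Of 420 values of these genes under other settings, 411 kept their direction and side of the calling thresholds, 3 passed them newly, 5 no longer passed and 1 took the opposite sign, SMAD6 for GO-Rg3 against GO at -0.02 without GO replicate 2 (-0.02 to 0.15 with 1 sample left out in turn). For the pathway genes the numbers were 788, 6, 74 and 9. BMPR2 after GO went from -0.10 to 0.24 with the GC content offset, to 0.24 with that offset and the block, and to 0.01 without GO replicate 1 (-0.17 to 0.01 with 1 sample left out in turn). With the offset and with offset and block, SMAD1 after GO was at 0.06 and 0.05, TCF3 after GO at -0.18 and -0.17, and TCF3 after GO-Rg3-DOX at -0.07 in both. The cause was not tested.

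Leaving out 1 sample in turn gave 0 to 2 of the 7 genes called for GO-Rg3 against untreated cells and 1 to 2 for GO-Rg3 against GO. It gave 4 to 10 pathway genes for GO against untreated cells, with 4 without GO replicate 1, and 1 to 4 for GO-Rg3 against GO. At an adjusted p of 0.0001, 0 of the 7 genes were called for GO-Rg3 against untreated cells, and 3 pathway genes after GO and 0 between GO-Rg3 and GO. With the GC content offset these pathway counts were 4 and 1, and with offset and block 4 and 1. For GO-Rg3 against GO the count was 2 with at least 10 counts in every sample, which tests fewer genes, and 1 with only the 6 samples compared. Library totals shifted the median of all genes to -0.11 after GO, -0.47 after GO-Rg3-DOX and 0.12 for GO-Rg3 against GO, and gave 4 pathway genes higher and 3 lower after GO and 1 higher and 2 lower for GO-Rg3 against GO.

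The replicate numbers of the labels carry no stated meaning. Deviations from group means correlated at a mean of 0.0856 between samples of the same number (-0.0239 to 0.239) and at -0.043 between others. Deviations in a group sum to 0, which ties the second mean to the first. GO-Rg3 replicates 1, 2 and 3 were at 0.239, 0.173 and 0.0472 with the same numbers of untreated cells. With those of GO they were at 0.204, 0.234 and 0.0315. These values do not decide whether numbers mark pairs, and the main fit had no block because the methods name none. With the replicate block 6, 1, 7 and 2 of the 7 genes were called after GO, GO-Rg3, GO-Rg3-DOX (each against untreated cells) and for the pair GO-Rg3 and GO, and 8, 0, 35 and 4 pathway genes. Genes under 1 CPM, such as HAMP, are limited by depth.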
